A study of Bos taurus with 12 samples.

Results

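The 10 genes described here encode machinery that makes peptides and shows them to T cells: B2M, TAP1, TAP2, TAPBP, PSMB8 and PSMB9 of the class I pathway, and BOLA-DRA, CD74, BOLA-DMB and CIITA of the class II pathway. They are 10 of 19212 gene names with a tested probe, were chosen by name, and were read on 33 of the 43622 probes used. In the scanner files 25 probes carry the name of B2M, CD74, TAP1, TAP2, TAPBP, PSMB8 or PSMB9. A further 6 belong to BOLA-DRA and BOLA-DMB by RefSeq accession (the files call them HLA-DRA and HLA-DMB), and 2 to CIITA by their description. Here TAP1 and TAP2 are the peptide transporters, not the defensin TAP, and the polymorphic DQ and class I heavy chain probes were left out.

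Class I molecules sit on nearly all cells with a nucleus and show peptides cut from proteins made in the cell. The immunoproteasome cuts them, TAP1 and TAP2 carry them into the endoplasmic reticulum, tapasin (TAPBP) loads them, and beta-2-microglobulin (B2M) is the light chain of the finished molecule. Class II molecules are made mainly by dendritic cells, macrophages and B cells, show peptides from material taken up, and depend on CIITA for their transcription. In the endometrium they are carried mostly by immune cells of the stroma, and interferon gamma can raise both pathways in epithelium as well.

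The 12 samples were endometrial biopsies of 3 cows, described as fertile, each sampled on day 0, day 2, day 7 and day 14 of intrauterine povidone-iodine (PVP-I), an antiseptic. Each day is therefore a group of 3 samples, 1 per cow, and all groups carry the treatment label: no untreated cow is among them. The labels do not say whether the day 0 biopsy came before the antiseptic, nor the horn or cycle stage of a sample. Total RNA was measured on one-colour Agilent arrays, and a level below is the log2 signal after subtraction of the array's 75th percentile. A biopsy is a mixture, so fewer cells of a type and less RNA per cell cannot be told apart in any value given here.

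For 10 of the 12 arrays, GEO's links and the deposited value table disagree on the sample. An array was given the sample of the table column it matched (correlation at least 0.999997, next best at most 0.52), and all values rest on this. The links gave 0 of 33539 probes past the threshold on day 7 or on day 2 against day 0, so every call named for these days is lost under them. For day 14 against days 0, 7 and 2 the links gave 237, 215 and 194 probes, with 0 members. The naming used here gave 44, 49 and 0 probes there. By the value table, each cow fills 1 slide and each day 1 position on the slides, so cow and slide, and day and position, cannot be told apart. The share of probes well above background was 63.2% for the day 2 array of cow 3 and from 71.3% to 76.0% for the other 11. All 9 stromal, all 8 endothelial and 8 of 9 epithelial markers had a tested probe. On day 7 no epithelial and no stromal marker passed the limma test against day 0, with 2 and 1 of them at an unadjusted p under 0.05. The summed signal of the epithelial markers differed by -0.62, 0.25 and 0.36 on the log2 scale in cows 1, 2 and 3. That of the stromal markers differed by 0.42, 0.21 and 0.52.

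The sequences of 7 probes are shown because the files place each over more genome than its 60 bases, so the match is interrupted. A probe across a splice junction would be placed so, but exon annotation was not used to check this. The sequences are written 5′ to 3′ as on the array and carry no marked part. In HGSC Btau_3.1, the build of the file headers, BOLA-DRA A_73_P438206 lies on the minus strand at chr23:26441386-26441877 and BOLA-DMB A_73_P039926 at chr23:7454520-7454977. Both CD74 probes, A_73_P106626 at chr7:61217142-61218860 and A_73_P393756 at chr7:61216817-61217146, lie on the minus strand too. TAP1 A_73_P390156 (chr23:7391834-7392322) and PSMB8 A_73_P110796 (chr23:7379932-7380229) lie close together on chromosome 23, on the minus strand. A probe that the files call TAP2, A_73_P043976 (chr23:7370095-7372106), is the one the RefSeq table gives to the neighbouring LOC618733.
BOLA-DRA A_73_P438206: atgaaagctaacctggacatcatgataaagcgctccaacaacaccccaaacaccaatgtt
BOLA-DMB A_73_P039926: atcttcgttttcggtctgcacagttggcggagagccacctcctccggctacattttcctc
CD74 A_73_P106626: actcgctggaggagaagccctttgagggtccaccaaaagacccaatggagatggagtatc
CD74 A_73_P393756: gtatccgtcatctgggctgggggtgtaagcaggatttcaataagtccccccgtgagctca
TAP1 A_73_P390156: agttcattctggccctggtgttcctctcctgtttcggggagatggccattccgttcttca
PSMB8 A_73_P110796: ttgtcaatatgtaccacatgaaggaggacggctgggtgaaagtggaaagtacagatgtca
LOC618733 A_73_P043976: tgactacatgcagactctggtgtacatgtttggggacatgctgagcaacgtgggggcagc

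Of the 33 probes, 28 match their gene by accession or description, and 26 of these were well above background on all 12 arrays and were tested. The second CIITA probe was above background on 0 arrays, the dimmest BOLA-DMB probe on 2, and a PSMB9 probe from an expressed sequence tag on 0, so none of them was tested. The RefSeq table gives 2 probes named B2M in the files to LOC783680 and 2 named TAP2 to LOC618733, which leaves 4 probes for B2M and 1 for TAP2. The brightest probe stands for each gene, and the other probes are given beside it. In HGSC Btau_3.1 the brightest probes lie at chr10:106114360-106114419 (B2M), chr7:61216607-61216666 (CD74), chr25:10644676-10644735 (CIITA) and chr23:26439544-26439586 (BOLA-DRA, placed over 43 bases only). Those of TAP2 (chr23:7345518-7345577), PSMB8 (chr23:7379740-7379799), TAP1 (chr23:7386309-7386368), PSMB9 (chr23:7399900-7399959) and TAPBP (chr23:7767636-7767695) lie in one stretch of chromosome 23 with BOLA-DMB, far from BOLA-DRA. Exon, intron and UTR annotation of this build was not used here. Overlapping probes are no separate reading: 2 of the 5 CD74 probes share 46 bases, and 2 of the 3 PSMB9 probes share 50.

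On day 7, BOLA-DRA and CD74 were higher than on day 0, by 2.07-fold each, and no other member passed the test. That is 2 of 10 genes, against 18.2% of all probes tested (6098 of 33539), so the share called was near that of the whole array and says nothing particular about antigen presentation. No member passed against day 0 in the samples of day 2 (2.52% of all probes did) or of day 14 (0.131%). None passed between day 7 and day 2 (0.486%), day 14 and day 7 (0.146%) or day 14 and day 2 (0% of probes, 0 of 33539). The limma F-test over the 4 days called 0 members and 7.78% of probes, with adjusted p between 0.0861 and 0.726. At an unadjusted p under 0.05 the members counted 2, 3 and 3 of 10 on days 2, 7 and 14 against day 0, where 20.9%, 35.1% and 20.6% of all probes did. They counted 1, 1 and 0 in the comparisons of day 7 with 2, 14 with 7 and 14 with 2, beside 18.2%, 18% and 12.6% of probes. The F-test gave 3 (CD74, CIITA and BOLA-DRA), beside 30.5% of probes. None of these counts sets the members apart from the array.

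The median log2 change of the 10 genes from day 0 was 0.13, 0.08 and 0.21 at the later days in turn. Over all 19212 gene names it was -0.02, 0.01 and 0.02. On day 7 the members spread from -0.36 (TAP1) to 1.05 (CD74), with 5 above 0 and 5 below. All 4 class II genes were among those above 0, and TAPBP was the only class I member there.

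**Figure D1:**
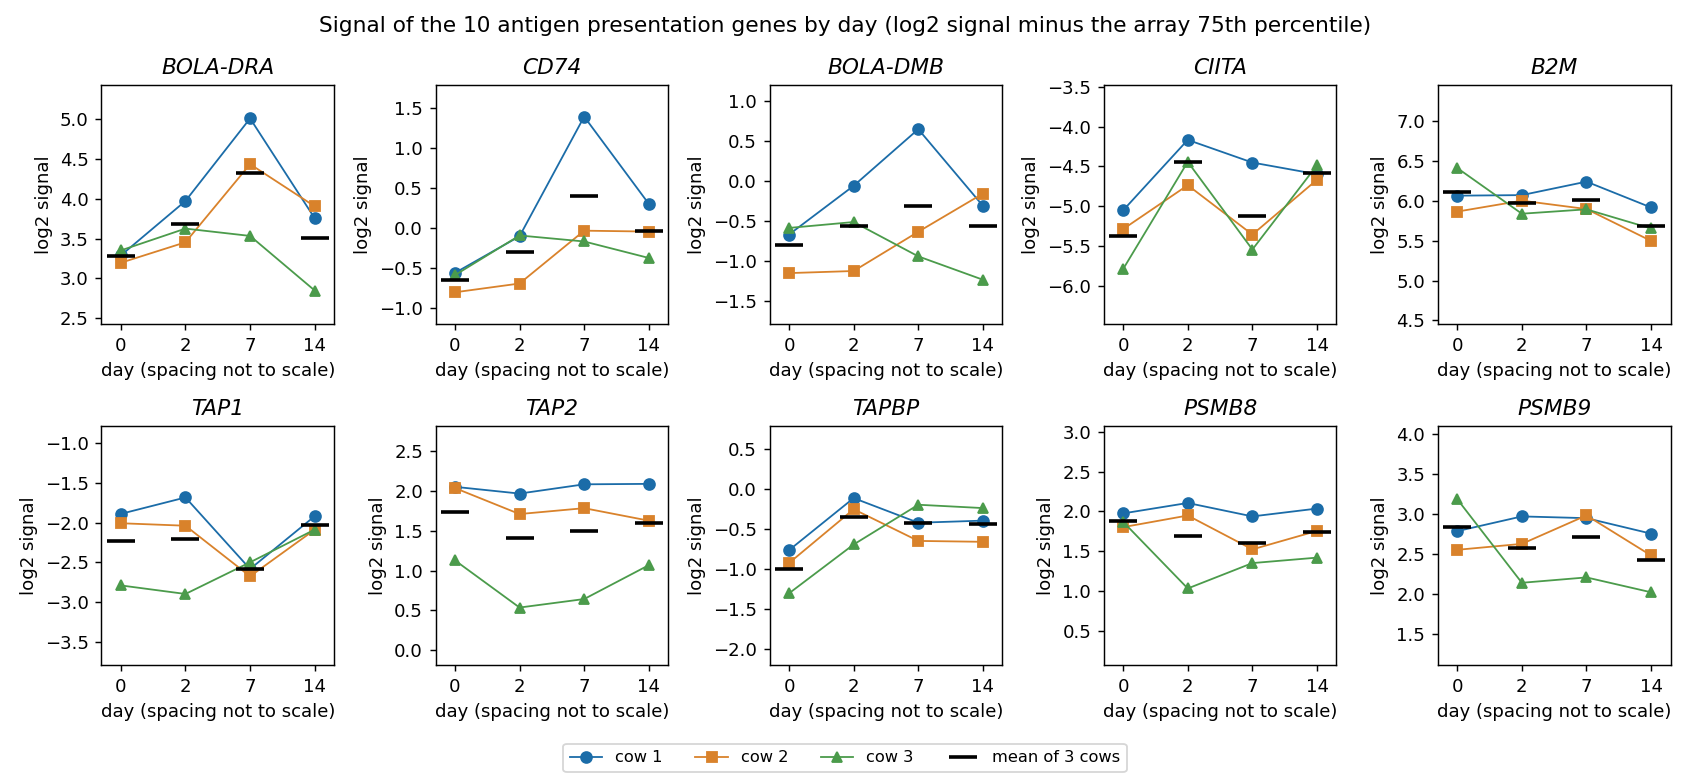
Log2 signal minus the array's 75th percentile (vertical axis, a window of equal height in each panel) of the 10 genes by day, with a line per cow and a bar at the mean of the 3 cows. BOLA-DRA, CD74 and BOLA-DMB fan out by cow on day 7, with cow 1 highest (5.01, 1.40 and 0.65), while TAP2 of cow 3 lies below the other cows on all 4 days.

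BOLA-DRA encodes the alpha chain of the class II molecule DR. Its brightest probe, A_73_107479, had levels of 3.29, 3.97, 5.01 and 3.76 in cow 1 on days 0, 2, 7 and 14. In cow 2 they were 3.20, 3.45, 4.43 and 3.91, and in cow 3 they were 3.35, 3.63, 3.53 and 2.85. The day 7 values of cows 1 and 2 were the highest of the 12, and cow 3 reached only just above its own day 0. All 3 values of day 7 lay above all 3 of day 0, as did those of day 2, while day 14 overlapped day 0 because cow 3 fell below it.

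From day 0 to day 7 BOLA-DRA rose by 1.05 ± 0.31 SE on the log2 scale (95% confidence interval 0.34 to 1.75, adjusted p = 0.0492, limma, n = 3 cows). Within the cows the difference was 1.72, 1.24 and 0.18. The second probe, A_73_P038356, gave 1.27 ± 0.27 (adjusted p = 0.0181) with 1.88, 1.36 and 0.57 in the cows. The BOLA-DRA probe printed above gave 1.22 ± 0.38 (adjusted p = 0.0565), so 2 of 3 probes passed. Day 2 stood 0.40 ± 0.31 above day 0 (adjusted p = 0.49), and day 14 stood 0.22 ± 0.31 above it (adjusted p = 0.708). From day 7 to day 14 it was -0.82 ± 0.31, lower in 3 of 3 cows, with an adjusted p of 0.221. By mean level the days run from day 7 through day 2 and day 14 to day 0, and only day 7 and day 0 were apart in the test.

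CD74 encodes the invariant chain, which fills the groove of new class II molecules and guides them to the endosome. Over days 0, 2, 7 and 14 its brightest probe read -0.57, -0.11, 1.40 and 0.30 in cow 1. It read -0.81, -0.70, -0.04 and -0.05 in cow 2, and -0.59, -0.10, -0.17 and -0.38 in cow 3. One sample, cow 1 on day 7, stood far above the rest, yet all values of days 7 and 14 were above all of day 0.

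The rise of CD74 from day 0 to day 7 was 1.05 ± 0.31 SE (interval 0.35 to 1.76, adjusted p = 0.0482, limma), made of 1.96, 0.77 and 0.42 in the cows. Its other 4 probes gave between 0.96 and 1.26, all above 0 and none past the threshold, with adjusted p from 0.0736 to 0.153. The farthest upstream of them, A_73_P106621, differed by -0.05 in cow 3 and by 2.03 in cow 1. On day 14 CD74 was 0.61 ± 0.31 above day 0 (adjusted p = 0.297), and its 5 probes spread from 0.58 to 1.15.

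Both calls lie close to the threshold. Leaving out cow 1 took BOLA-DRA to 0.71 (adjusted p = 0.386) and CD74 to 0.60 (adjusted p = 0.341). Without cow 2 they stood at 0.95 (adjusted p = 0.246) and 1.19 (adjusted p = 0.201). Without cow 3 they were larger, 1.48 (adjusted p = 0.0203) and 1.37 (adjusted p = 0.0427), and TAP1 passed as lower at -0.68 (adjusted p = 0.0382). Without the cow as a block neither passed (adjusted p = 0.0906 and 0.0951). With samples taken from GEO's links the differences turned to -0.19 and -0.47 and 0 members passed, as did 0% of all probes.

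**Figure D2:**
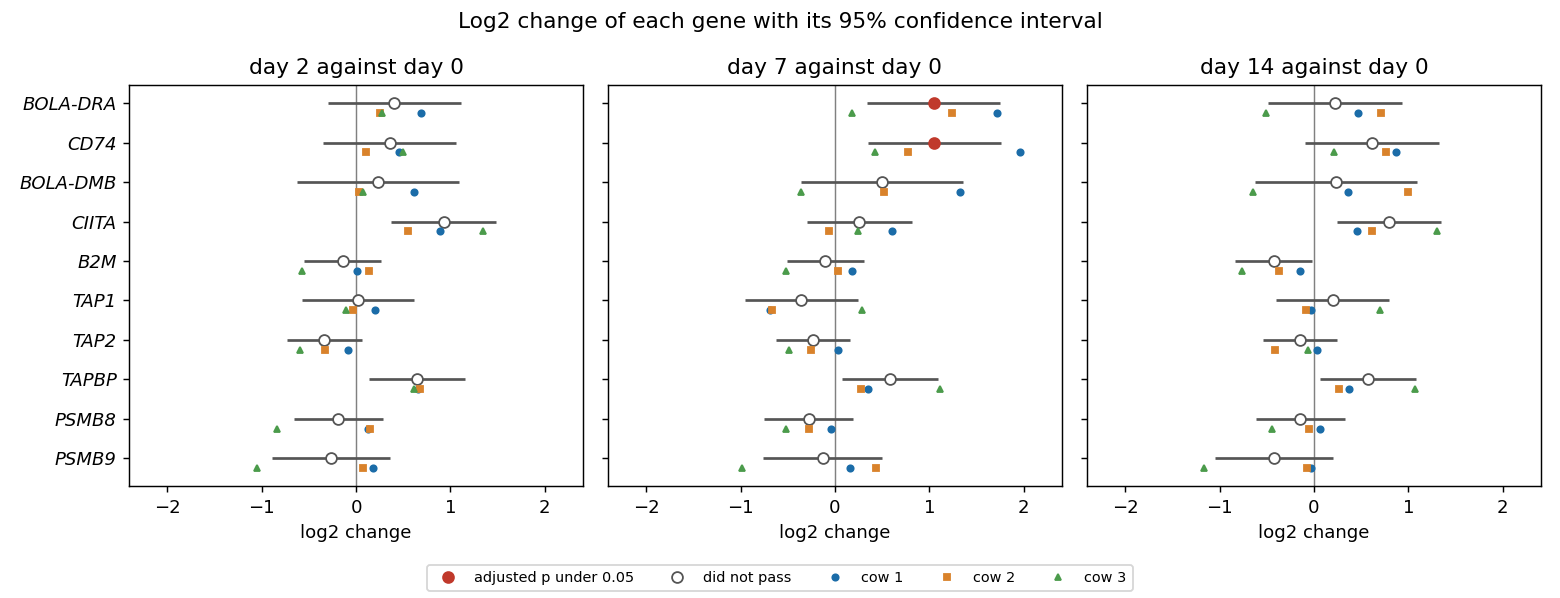
Log2 change of the 10 genes against day 0 on days 2, 7 and 14 (horizontal axis), as the limma estimate (large circle) with its 95% confidence interval and, beneath it, the difference within each cow (small marks). Only BOLA-DRA and CD74 on day 7 are filled as past the threshold, and cow 3 is the smallest of the 3 cows for both.

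BOLA-DMB is a chain of the DM molecule, which swaps the invariant chain remnant for antigenic peptide. Its levels over the 4 days, in order, were -0.67, -0.06, 0.65 and -0.31 in cow 1, -1.16, -1.13, -0.64 and -0.16 in cow 2, and -0.59, -0.51, -0.95 and -1.24 in cow 3. From day 0 to day 7 the difference was 1.32 and 0.52 in cows 1 and 2, and -0.36 in cow 3. The mean difference was 0.49 ± 0.37 (interval -0.36 to 1.35, adjusted p = 0.383, limma), with 0.64 on the other tested probe, so a rise of the size seen for BOLA-DRA lies within the interval.

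CIITA is the transactivator that switches on class II genes. It was dim, with -5.05, -4.17, -4.45 and -4.60 in cow 1 over the 4 days, -5.29, -4.74, -5.36 and -4.67 in cow 2, and -5.79, -4.44, -5.54 and -4.48 in cow 3. Days 2 and 14 lay above day 0 in every cow without overlap, and day 7 overlapped day 0. Day 2 was 0.93 ± 0.24 above day 0 (adjusted p = 0.0841), day 7 was 0.26 ± 0.24 above it (adjusted p = 0.48) and day 14 was 0.79 ± 0.24 above it (adjusted p = 0.133). The order of the days thus differed from that of BOLA-DRA and CD74, whose highest mean was on day 7. Only 1 probe speaks for CIITA.

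B2M was among the steadier members. Its brightest probe read 6.07, 6.07, 6.24 and 5.92 in cow 1 over the 4 days, 5.87, 6.0, 5.90 and 5.50 in cow 2, and 6.41, 5.84, 5.89 and 5.65 in cow 3. By day 14 every cow was below its own day 0, with differences of -0.15, -0.37 and -0.76 and a mean of -0.43 ± 0.18 that did not pass (adjusted p = 0.229, limma). Its 4 probes disagreed there: 3 lay between -0.43 and -0.11, and A_73_116322 gave 0.22. A further probe, A_73_P080801, is described as beta-2-microglobulin by its Ensembl transcript but was not among those chosen. It gave 0.11 on day 14, which makes 2 of 5 above 0. On day 7 the 4 probes stayed between -0.21 and 0.00, and the brightest had an interval of -0.51 to 0.31.

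TAP1 and TAP2 form the peptide pump. TAP1 read -1.89, -1.69, -2.58 and -1.92 in cow 1, -2.01, -2.04, -2.67 and -2.09 in cow 2, and -2.79, -2.90, -2.50 and -2.09 in cow 3. Day 7 less day 0 was -0.69 and -0.67 in cows 1 and 2, and 0.29 in cow 3. The mean was -0.36 ± 0.26 (adjusted p = 0.364), with -0.34 and -0.28 on the other probes. From day 7 to day 14 TAP1 was higher in 3 of 3 cows, by 0.55 ± 0.26, and did not pass (adjusted p = 0.306).

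TAP2 differed more between cows than between days. Cow 1 held 2.05, 1.97, 2.08 and 2.09 on days 0, 2, 7 and 14, cow 2 held 2.04, 1.71, 1.78 and 1.63, and cow 3 held 1.13, 0.54, 0.64 and 1.07. The means over the 4 days spread by 1.20 over the cows, against a spread of 0.33 between the means of the days. No difference from day 0 passed: day 2 gave -0.33 ± 0.17 (adjusted p = 0.307), day 7 gave -0.24 and day 14 gave -0.14. Cow and slide are the same split here, and only 1 probe carries TAP2. The difference between cows was not tested. Cow means also spread more than day means for PSMB8 (0.59 against 0.28), BOLA-DMB (0.72 against 0.49) and PSMB9 (0.48 against 0.42).

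The 2 probes named TAP2 in the files but placed at LOC618733 did not follow it. On A_73_P043976 the day 7 difference within cows was -0.62, -0.41 and 0.54, close to the -0.69, -0.67 and 0.29 of TAP1. With each cow's mean removed, its levels correlated with those of TAP1 at 0.92 and with those of TAP2 at -0.09 over the 12 arrays, and A_73_P061856 at 0.75 and -0.01. These are descriptions over arrays that share 3 cows, and what these probes bind was not tested.

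TAPBP encodes tapasin, which bridges TAP and the class I molecule. Its single probe read -0.76, -0.11, -0.42 and -0.39 in cow 1, -0.93, -0.25, -0.65 and -0.66 in cow 2, and -1.31, -0.69, -0.19 and -0.24 in cow 3. On each later day all 3 values lay above all 3 of day 0. It stood 0.65 ± 0.22 above day 0 at day 2 (adjusted p = 0.153), 0.58 ± 0.22 at day 7 (adjusted p = 0.104) and 0.57 ± 0.22 at day 14 (adjusted p = 0.203). On day 2 the cows were alike, with 0.65, 0.68 and 0.61. On day 7 they were not, with 0.34, 0.28 and 1.11. TAPBP was thus above day 0 in all 3 cows on each later day and passed the threshold on no day. All these differences share the same 3 day 0 arrays.

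Between the later days no member passed the test. From day 2 to day 7 the widest were 0.70 for CD74 (adjusted p = 0.28, limma), which was above 0 in cows 1 and 2 and -0.08 in cow 3, and -0.67 for CIITA (-0.28, -0.62 and -1.10, adjusted p = 0.195). From day 7 to day 14 they were those of BOLA-DRA and TAP1 given above. From day 2 to day 14 the widest was that of the brightest B2M probe, -0.28 (adjusted p = 0.555), lower in 3 of 3 cows. The B2M probes disagreed here too. Its 4 probes ran from -0.28 to 0.39, 2 of them below 0, and the further probe A_73_P080801 gave 0.34.

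Groups that did not overlap were no rarity on these arrays. On day 2 the 3 values lay all above day 0 for 3 members (CIITA, TAPBP and BOLA-DRA) and for 12.7% of all probes. On day 7 they did for 3 members (CD74, TAPBP and BOLA-DRA) and 20.8% of probes, and on day 14 for 3 (CD74, CIITA and TAPBP) and 14.3%.

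PSMB8 and PSMB9 are catalytic subunits of the immunoproteasome. PSMB8 read 1.97, 2.11, 1.94 and 2.04 in cow 1 over the 4 days, 1.80, 1.95, 1.52 and 1.75 in cow 2, and 1.87, 1.03, 1.35 and 1.42 in cow 3. PSMB9 read 2.79, 2.97, 2.95 and 2.75 in cow 1, 2.55, 2.63, 2.98 and 2.48 in cow 2, and 3.19, 2.14, 2.20 and 2.02 in cow 3. In cows 1 and 2 PSMB9 stayed within 0.43 of day 0 on every later day, while in cow 3 it differed by -1.05, -0.98 and -1.17. Its mean difference from day 0 was -0.26, -0.13 and -0.42, each ± 0.27 SE, and for PSMB8 -0.19, -0.28 and -0.15, each ± 0.20, with no adjusted p below 0.369 (limma). The lowest PSMB8 value was on the day 2 array of cow 3, the array with the fewest probes above background. The summed epithelial markers of that array also differed from day 0 by -0.92, beside 0.41 and 0.35 in cows 1 and 2. The part of the array's depth or of its mix of cells in this PSMB8 value was not tested.

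The constitutive subunits that they displace were read beside them. PSMB6, which PSMB9 replaces, rose by 0.69 ± 0.14 on day 7 (adjusted p = 0.015, 0.51, 0.89 and 0.66 in the cows). PSMB5, which PSMB8 replaces, was 0.54 ± 0.17 above day 0 and missed the threshold (adjusted p = 0.0636). The change of PSMB9 less that of PSMB6 was -0.35, -0.46 and -1.64 in the cows on day 7, and that of PSMB8 less PSMB5 was -0.41, -1.05 and -1.0. All 6 differences were below 0, as were those of days 2 and 14. Their means on these days were -0.83 and -0.69 for PSMB9 less PSMB6, and -0.45 and -0.43 for PSMB8 less PSMB5. In cows 1, 2 and 3 PSMB9 less PSMB6 gave -0.32, -0.53 and -1.62 on day 2, and -0.33, -0.33 and -1.40 on day 14. PSMB8 less PSMB5 gave -0.26, -0.26 and -0.83, then -0.26, -0.65 and -0.36. The 3 later days share the day 0 arrays. With 3 cows the smallest exact two-sided p is 0.25, so no test is given. PSMB10, the third immunoproteasome subunit, differed from day 0 by 0.36, 0.49 and -0.99 in the cows on day 7 (mean -0.05, adjusted p = 0.934), again with cow 3 apart. It was not set against a constitutive subunit.

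**Figure D3:**
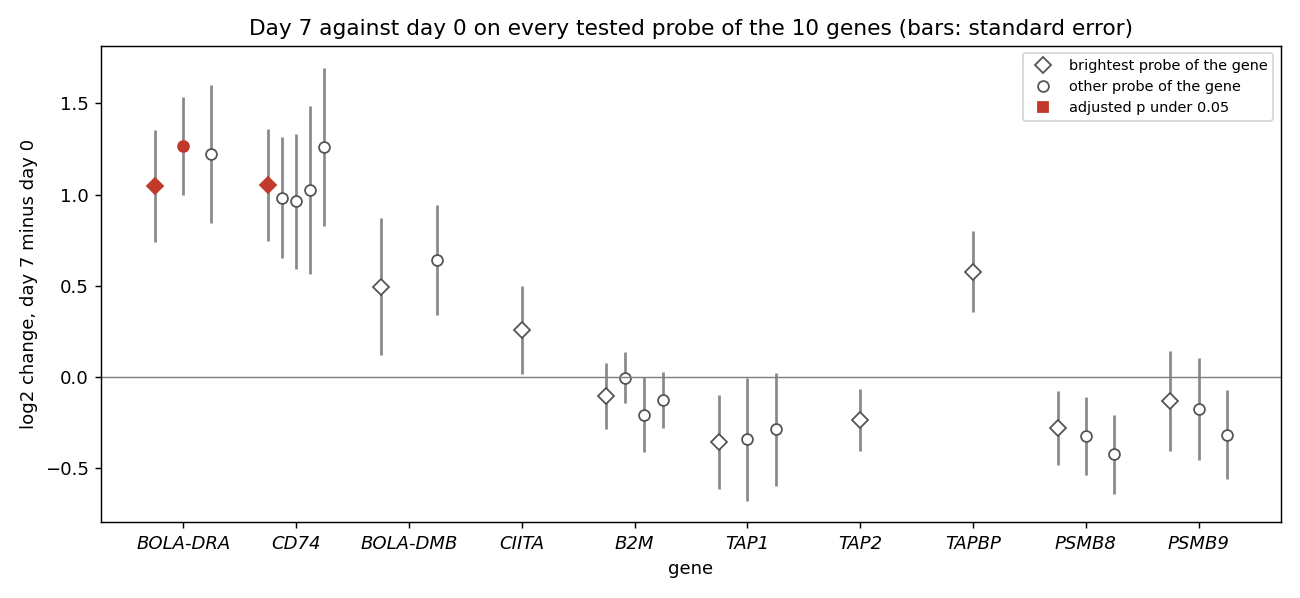
Log2 change from day 0 to day 7 (vertical axis) with its standard error on the 26 tested probes that match the 10 genes, grouped by gene. The probes of one gene lie close together: 3 of BOLA-DRA span 1.05 to 1.27, 5 of CD74 span 0.96 to 1.26, and those of B2M, TAP1, TAP2, PSMB8 and PSMB9 all lie at or below 0.00.

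With samples from GEO's links, 0 of the 26 pathway and marker genes called on day 7 passed (lowest adjusted p = 0.945, limma) and 17 turned sign. Of the 8 called on day 2, 0 passed and 7 turned sign. The other genes of the pathways were read from lists, and on day 7 are to be held against the 18.2% of probes called on the whole array. Of 10 tested genes for class I loading and trimming 1 rose, PDIA3 (0.60 ± 0.16), a thiol oxidoreductase of the peptide loading complex, and the list's median change was 0.38. NLRC5, the transactivator of class I genes, stood 0.86 ± 0.21 above day 0 at day 2 (adjusted p = 0.0715), 0.46 at day 7 (adjusted p = 0.152) and 0.76 at day 14 (adjusted p = 0.108), higher in 3 of 3 cows each time. Of 10 constitutive proteasome genes 2 rose, PSMB6 and PSMA7 (0.56 ± 0.15), with a median of 0.42. Of 5 genes of the proteasome activator, its assembly and PSMB10, 1 rose, PSME3 (0.52 ± 0.15), with a median of 0.04.

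Of 9 tested genes of class II loading and endosomal processing 2 rose on day 7, with a median of 0.32. They were IFI30, a lysosomal thiol reductase that unfolds antigens, by 1.55 ± 0.21 (adjusted p = 0.00448, 2.05, 1.29 and 1.30 in the cows), and BOLA-DOA (HLA-DOA in the files), a chain of the DM-inhibiting molecule DO, by 1.75 ± 0.36 (adjusted p = 0.0167, 2.71, 1.61 and 0.93). BOLA-DOB, the other chain of DO, fell by 1.82 ± 0.34 from day 0 to day 2 (adjusted p = 0.037), in 3 of 3 cows, though on day 2 it was above background on only 1 of 3 arrays. Of 7 genes of the complex that recruits CIITA to class II promoters 2 rose on day 7, NFYA (0.63 ± 0.15) and CREB1 (0.65 ± 0.16), with a median of 0.19.

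Of 17 tested genes of the interferon gamma axis 2 rose and 1 fell on day 7, with a median of 0.35. The receptor chain IFNGR2 rose by 1.24 ± 0.19 and the chemokine CXCL9 by 1.44 ± 0.34, and the guanylate-binding protein gene GBP4 fell by 3.46 ± 0.53 (-3.02, -2.68 and -4.68 in the cows). CXCL9 had risen by 1.70 ± 0.34 on day 2 (adjusted p = 0.043). IRF1, a transcription factor that acts on class I and CIITA promoters, differed by -0.08 ± 0.30 on day 7 (0.17, 0.61 and -1.02 in the cows). IFNG itself was not well above background on the 3 arrays needed for testing. Of 5 tested costimulatory genes 4 rose on day 7: CD40 (2.01 ± 0.31), CD86 (1.53 ± 0.42), ICAM1 (0.66 ± 0.19) and ICOSLG (adjusted p = 0.017, limma), with a list median of 1.53. ICOSLG was not well above background on any day 0 array and was on 2 of the 3 of day 7, so the test set it against background and its rise is known only as at least 1.79-fold. With ICOSLG at that bound the list median is 1.15.

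BOLA-DRA and CD74 changed least by day 7 in cow 3. On that day cow 3 also had the smallest differences in the summed markers of macrophages, dendritic cells and leukocytes in general. The summed level of 11 tested macrophage markers (of 12) lay between 3.82 and 4.12 on day 0 and between 4.01 and 5.79 on day 7. From day 0 to day 7 it differed by 1.67, 1.25 and 0.02 in cows 1, 2 and 3, beside 1.72, 1.24 and 0.18 for BOLA-DRA. The 7 tested dendritic cell markers (of 12) differed by 1.78, 1.97 and -0.54, lying between -1.69 and -0.88 on day 0 and between -1.43 and 0.84 on day 7. ZBTB46, XCR1, CD207 and CD1A among them were too dim to test. The 6 tested general leukocyte markers (of 7) differed by 1.76, 1.42 and 0.31, from between 2.33 and 2.94 to between 3.04 and 4.70. On day 2 the general leukocyte sums already differed from day 0 by 1.21, 1.39 and 1.51 in cows 1, 2 and 3. The macrophage sums then differed by 0.76, 0.95 and 0.25, and the dendritic cell sums by 0.67, 0.41 and 0.08. BOLA-DRA and CD74 did not pass on day 2. The part of macrophages, dendritic cells and other leukocytes in the change of BOLA-DRA and CD74 was not tested.

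Single markers passed in the same comparison. CD68, CSF1R and CD14 of the macrophage list rose on day 7, by 1.43 ± 0.36, 1.32 ± 0.29 and 1.81 ± 0.43, 3 of 11 tested. PTPRC, CD53, CORO1A and ITGB2 rose among the general markers, 4 of 6, and PTPRC (CD45) did so about equally in the cows, by 1.59, 1.38 and 1.70. No dendritic cell marker passed, with 1 at an unadjusted p under 0.05, although the list's median was 0.95. B cell markers gave 0 of 5 past the limma threshold and 0 at an unadjusted p under 0.05, with sums that differed by 0.64, 0.13 and -0.82. CD79B, CR2 and FCRLA were too dim to test. Of 10 T and NK cell markers only CD2 rose (0.86 ± 0.24), and the sums differed by 0.18, -0.10 and 0.12. Of 7 tested neutrophil markers (of 10) only S100A12 rose (2.54 ± 0.39), and the sums ran the other way round, with -1.05, -0.37 and 4.52. These sums were 4.41, 5.51 and 1.98 on day 0, so cow 3 started lowest, and the list's median change was 0.77. CXCR1 and CXCR2 were too dim to test, and CSF3R, the granulocyte colony stimulating factor receptor, was left out because no probe carries its symbol. Of 2 dim probes described as that receptor, A_73_P093746 differed by 4.33, 2.24 and -0.90 in the cows and A_73_108368 by 3.57, 0.60 and -0.17, unlike the sums. Neither passed (adjusted p = 0.13 and 0.144, limma). PECAM1 (1.18 ± 0.23) and VWF (adjusted p = 0.0203, limma) rose among 8 endothelial markers. VWF was above background on no array of day 0 and on 2 of 3 of day 7, and its rise is known only as at least 1.21-fold. Some markers had already passed on day 2: CD68 (2.45), PTPRC (1.36), CD53 (1.45), ITGB2 (1.99), S100A12 (3.78) and PECAM1 (1.13). On that day 2.52% of all probes passed against day 0.

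**Figure D4:**
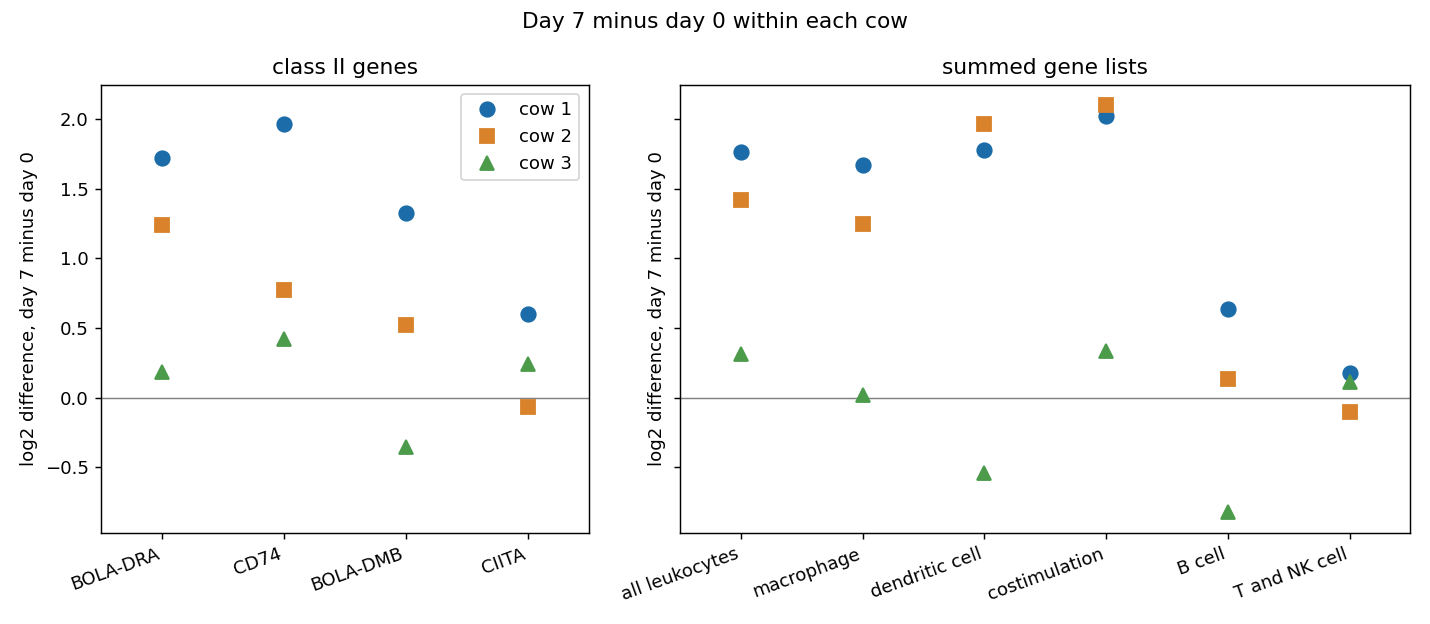
Difference between day 7 and day 0 within each cow (vertical axis, log2) for the 4 class II genes and for the summed level of 6 gene lists. Cow 3 is the lowest for BOLA-DRA, CD74, BOLA-DMB, the general leukocyte, macrophage, dendritic cell, costimulation and B cell lists.

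The members did not move as one. With each cow's mean removed, the 45 pairs of members correlated between -0.82 and 0.88 over the 12 arrays, with a median of 0.05 and 23 pairs above 0. BOLA-DRA went with CD74 at 0.88 and with BOLA-DMB at 0.85, and CD74 with BOLA-DMB at 0.79. CIITA went with BOLA-DRA at 0.05 and with TAPBP at 0.56. TAP1 ran against BOLA-DRA at -0.82 and against BOLA-DMB at -0.66. Among class I genes B2M went with PSMB9 at 0.84 and with TAP1 at -0.47. The 12 arrays share cow, slide and day, so these values describe the samples and are no test.

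By the same measure the genes most like the mean of the 10 members were CFD, the complement protease adipsin, at 0.97, TGM3, a transglutaminase, at 0.93 and MRE11, a DNA repair nuclease, at 0.93. A cDNA clone named BC149877 and a probe described as the granulocyte colony stimulating factor receptor both stood at 0.93. Of these 5 only TGM3 passed on day 7, by 2.27 on the log2 scale (adjusted p = 0.0356).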

How the data were processed

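Total RNA of 12 endometrial biopsies (3 cows, 4 days) was hybridised to 12 one-colour arrays. Spot intensity in the deposited scanner files was extracted and detrended by Agilent Feature Extraction 11.5.1.1, per the file headers, which name HGSC Btau_3.1. The submitters' processing notes name version 10.5.1.1. The authors' deposited value table is on a log2 scale. How it was made is not given in the sources used. Its scale, centring and direction are known only from setting its columns against the scanner values, where the median absolute difference was at most 0.00311. Its column medians were 0.01, 0.05, 0.08 and -0.03 for cow 1 on days 0, 2, 7 and 14. For cow 2 they were -0.03, -0.06, -0.02 and 0.00, and for cow 3 -0.07, 0.03, 0.00 and 0.02.

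The log2 processed signal minus each array's 75th percentile was used. Left out were 1417 control spots, 31 of 43653 probes with outlier flags, and probes well above background on fewer than 3 arrays, which left 33539. No probe was saturated. Gene names come from each probe's accession and a RefSeq table (ARS-UCD2.0), whose coordinates were not used. The brightest probe stood for a gene. Where a probe was not well above background on any array of a day, a bound on the fold is given: the bright day's mean against, per array, the higher of the lowest signal well above background and the probe's own. limma 3.58.1 (R 4.3.3) fitted day with cow as block on all 12 arrays (residual and prior degrees of freedom 6 and 2.33). P-values were adjusted by Benjamini-Hochberg over the 33539 probes, with a threshold of 0.05. The fit was tested on simulated data. Summed list levels are log2 of the sum of linear signals, so bright genes weigh most.

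That a cow pairs its samples is stated by the study's design. Arrays of one cow deviated together from their day's mean in 15 of 18 pairs (r above 0.1), with a mean r of 0.285 and a lowest of 0.0236. Each cow fills 1 slide, so these values cannot tell a shared cow from a shared slide. The members and gene lists were chosen with earlier results of these data known. Named are all 10 members, list genes past the threshold, PSMB5, PSMB6, PSMB10, NLRC5, IRF1 and IFNG in any case, and the 5 genes most correlated with the members' mean. A further gene of this rule is not reported here. Each cow gave 1 biopsy a day, and the block removes differences in level between the cows. The p-values thus rest on how day differences vary among 3 animals, pooled over the 4 days. The number of arrays limits precision. Array naming, scaling, background correction, filter, block, weights, probe choice and left-out cows were tried as alternatives.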

Additional observations from a re-analysis of the deposited data

How the results depend on the processing

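The 2 members called on day 7 against day 0 became 0 with no replicate block, with quantile normalisation, with the 75th percentile over probes above background on all arrays, with no filter on dim probes, with only the 2 days compared and with samples from GEO's file links. They became 1, BOLA-DRA, with normexp and quantile normalisation and with the mean over the probes of a gene. They stayed 2 with the stricter filter, the authors' value table and array weights. Leaving out 1 cow gave 0 to 3 members on day 7 against day 0 and 0 to 1 on day 7 against day 2, where the 1 was TAP1 without cow 3. The whole array moved with them: without cow 1, 2 or 3 in turn, 0%, 0.635% and 18.5% of probes passed on day 7 against day 0, and 0%, 0% and 6.46% on day 7 against day 2. Under the file links 0% of all probes passed on day 7 against day 0, the change turned to -0.19 for BOLA-DRA and -0.47 for CD74, and the sign of 25 of the 60 gene changes turned. For day 14 against days 0, 7 and 2 the links called 0.707%, 0.641% and 0.578% of probes, and 0 members. The blocked design comes from the study, and no other count of members changed without the replicate block. Without the day 2 array of cow 3, the counts of the comparisons that use day 2 and of the F-test stayed 0.

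Array weights, whose fit stopped before its tolerance was reached, called 1 member on day 2 against day 0 (TAPBP), 4 on day 7 against day 2 (BOLA-DRA, TAP1, CD74 and CIITA), 1 on day 14 against day 7 (BOLA-DRA), 3 on day 14 against day 2 (TAPBP, CD74 and CIITA) and 5 among the 4 days. The shares of all probes called under these weights were 15.1%, 30.2%, 28.0%, 46.2% and 61.4% in the same order. The cause was not tested for any of these. BOLA-DRA kept its call in 6 of 14 alternatives and CD74 in 4, with adjusted p between 0.0092 and 0.985 and between 0.0273 and 0.971. Quantile normalisation moved the median change of all probes on day 7 from 0.04 to -0.01. With 3 arrays a day, a change that missed the threshold is not shown to be absent, as the intervals of BOLA-DMB and TAPBP show.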
